A study of Homo sapiens with 36 samples.

Results

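The insulin-like growth factor (IGF) axis genes described here were IGFBP2, IGFBP4, IGFBP7, IGF1R, IGF2R, INSR, IRS1 and IRS2, 8 of the 35442 gene symbols measured. They were chosen by their measured A9 against DMSO values, chiefly because IGFBP2 moved in opposite directions in the 2 cell lines, so their own A9 differences are given below as a description with no test. RNA was sequenced from MOLM-13 and MONO-MAC-6, which are established lines from human acute myeloid leukaemia, of wild-type genotype per the labels. MOLM-13 received DMSO, the solvent control, or A9 at 0.125 µM, and MONO-MAC-6 received DMSO or A9 at 0.25 µM. All cells were collected at 72 h. The labels describe A9 as a PROTAC, a compound that directs its target proteins to degradation. The series text names NR4A1, a nuclear receptor, as a target together with a kinase of the NF-kB pathway, given as IKK2 in the design and as IKK1 in the title. The dose differed between the lines, and its part cannot be told apart from that of the line. The 36 libraries were read as 12 samples, 3 in each of 4 groups, with 3 repeat libraries averaged per sample. The labels do not say whether the samples came from separate cultures, so p-values measure only the spread between these samples. Levels are given as TPM, each transcript's length-corrected share of its library, and hold no read counts, so the depth behind each value is unknown.

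IGF1 and IGF2 are growth factors that signal through IGF1R, a receptor tyrosine kinase closely related to the insulin receptor INSR. The activated receptors phosphorylate the adaptor proteins IRS1 and IRS2, which recruit PI3K and lead to AKT and mTOR signalling. IGF2R, the mannose 6-phosphate receptor, takes IGF2 into lysosomes for degradation, and the secreted binding proteins (IGFBPs) hold the ligands outside the cell and control their access to the receptors. IGFBP2 also binds integrins and other cell-surface proteins, and IGFBP7 binds the IGFs only weakly.

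The upstream sequences of 3 members and 1 alternative exon are shown to place the members and transcripts described below, and no measured value was tested against them. IGFBP2 has separate starts for its main transcript and for a short one, IGFBP4 shares the direction of IGFBP2 under A9 in each line, IRS2 is the member with an insulin response element in its window, and exon 11 of INSR separates the receptor's isoforms. Promoter windows came from RefSeq (GRCh38.p14) and ran from 250 bases before to 50 bases after each start. They were matched by symbol for 7 of the 8 members, with 9 windows in all, and IGFBP7 had no entry. Each sequence is printed 5′ to 3′ on the strand of its gene and stops before the first transcribed base. Capitals mark a GC box (GGGCGG) in IGFBP2-201, a TATA box (TATAAA) in IGFBP4 and the insulin response element (TGTTTTG) in IRS2. The IGFBP2-204 sequence holds none of these. In the INSR sequence, capitals mark the 36 bases of exon 11, taken from the GENCODE 29 transcript INSR-201 with 20 bases of the neighbouring exons on each side.
IGFBP2-201 upstream, chr2:216633170-216633394, plus strand: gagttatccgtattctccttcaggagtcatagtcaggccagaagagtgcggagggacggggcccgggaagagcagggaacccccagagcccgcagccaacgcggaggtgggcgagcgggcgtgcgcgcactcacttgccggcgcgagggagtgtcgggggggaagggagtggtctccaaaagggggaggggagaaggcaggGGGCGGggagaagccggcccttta
IGFBP2-204 upstream, chr2:216659317-216659566, plus strand: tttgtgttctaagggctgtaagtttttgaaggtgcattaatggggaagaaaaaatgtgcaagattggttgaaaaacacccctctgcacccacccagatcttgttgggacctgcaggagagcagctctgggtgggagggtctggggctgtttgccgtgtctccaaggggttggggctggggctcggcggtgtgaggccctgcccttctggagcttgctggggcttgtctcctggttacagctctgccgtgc
IGFBP4 upstream, chr17:40443200-40443449, plus strand: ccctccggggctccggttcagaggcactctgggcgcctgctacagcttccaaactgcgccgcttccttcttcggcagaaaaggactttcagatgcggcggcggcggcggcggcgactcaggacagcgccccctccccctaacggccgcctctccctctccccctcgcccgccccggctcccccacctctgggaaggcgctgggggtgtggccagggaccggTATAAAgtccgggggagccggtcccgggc
IRS2 upstream, chr13:109786584-109786833, minus strand: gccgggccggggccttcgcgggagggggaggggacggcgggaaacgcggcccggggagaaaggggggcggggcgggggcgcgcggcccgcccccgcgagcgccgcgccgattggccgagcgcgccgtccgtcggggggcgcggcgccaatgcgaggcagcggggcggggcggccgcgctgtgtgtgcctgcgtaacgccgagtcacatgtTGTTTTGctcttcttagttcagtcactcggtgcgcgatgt
INSR exon 11, chr19:7150497-7150532, minus strand: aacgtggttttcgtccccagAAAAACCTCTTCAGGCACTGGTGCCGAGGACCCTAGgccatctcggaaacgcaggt
Motifs were searched on both strands of the 9 member windows and of all 35116 windows of 300 bases. GGGCGG stood in 8 of the 9 member windows and in 45.0% of all windows. TATAAA was found only in the window of IGFBP4 and in 11.5% of all windows, and TGTTTTG only in that of IRS2 and in 4.92% of all windows. A kappaB site (GGACTTTCC, in 0.370% of all windows), the NR4A response element NBRE (AAAGGTCA, 1.22%) and a FOXO site (TGTTTAC, 3.42%) were in none of the member windows, which says only that these letters are not in these stretches. The window of the main IGFBP2 start held 28 CpG dinucleotides and that of IGFBP2-204 held 6, against a median of 14.0 over all windows. The other IGFBP2 window, of a start upstream of IGFBP2-201, held 8.

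Some samples stood apart, and this touches several values below. In MONO-MAC-6 the DMSO sample 1 had the lowest IGF1R, IGF2R, INSR and IRS2 and the highest IGFBP2 of its group. In MOLM-13 the A9 sample 3 had the lowest IGF1R, IGF2R, INSR and IRS2 and the highest IGFBP2, IGFBP4 and IGFBP7 of its group. The MOLM-13 DMSO sample 3 had the same order for these 7 genes within the DMSO group. The A9 differences also ran with transcript length over all genes. In MOLM-13 the median log2 difference was 0.017 for genes of 1000 to 1500 bases and -0.14 for genes of at least 7000 bases. The MONO-MAC-6 medians for the same classes were 0.04 and 0.35. The binding protein transcripts are short (mean length 1352 bases for IGFBP2, 2200 for IGFBP4 and 1421 for IGFBP7), whereas IGF1R (8726), IGF2R (7752), INSR (7248) and IRS2 (8138) are long. Each member's difference is therefore also given after removal of the length trend of each sample, and its part in the deposited values was not tested further. Myeloid identity was checked with 10 markers. Of these, 8 or 9 reached a mean of 1 TPM in each group, with CD33 at 26.5 to 40.9 TPM and SPI1 at 157 to 344 TPM over the 12 samples. The summed myeloid markers were 762 to 794 TPM in MOLM-13 with DMSO and 994 to 1108 TPM with A9, and 3827 to 4334 TPM and 8462 to 8744 TPM in MONO-MAC-6. Markers of fibroblasts, a common source of IGFBPs, were at 1 TPM or more in 0 of 6 genes in every group, and COL3A1 was listed at 0 in all samples. Among 6 endothelial markers PECAM1 alone reached 1 TPM, at 12.3 to 217 TPM, while VWF was at most 0.103 TPM and CDH5 at most 0.0117 TPM. T cell, B cell and erythroid lists had at most 2 genes at 1 TPM in any group, and CD3E, CD2, MS4A1 and HBB were listed at 0. In bulk RNA fewer cells of a state and less RNA per cell cannot be told apart.

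IGFBP2 was higher with A9 than with DMSO in MOLM-13 but lower in MONO-MAC-6, and IGFBP4 and IGFBP7 had the same directions in each line. IGFBP2 (ENSG00000115457) lies on chromosome 2 at 216632828 to 216664436 on the plus strand (GRCh38, GENCODE 29) and encodes a binding protein known to be secreted by leukaemia cells. In MOLM-13 its level was 31.7, 34.1 and 34.9 TPM in the DMSO samples and 47.8, 50.5 and 56.1 TPM in the A9 samples. All A9 samples were above all DMSO samples, with means of 33.6 ± 1.64 and 51.5 ± 4.23 TPM (SD, n = 3), a difference of 0.60 on the log2(TPM + 1) scale (SE 0.087). In MONO-MAC-6 the DMSO samples were at 421.7, 296.2 and 288.8 TPM and the A9 samples at 184.0, 159.9 and 170.2 TPM. Here all A9 samples were below all DMSO samples, with means of 336 ± 74.7 and 171 ± 12.1 TPM (SD, n = 3) and a log2 difference of -0.95 (SE 0.16). Without the high DMSO sample 1 the difference was -0.77, and with the length trend removed the values were 0.58 for MOLM-13 and -1.0 for MONO-MAC-6. The 9 repeat libraries per group were averaged into these sample values and are not further replicates. They ran from 31.0 to 36.0 TPM with DMSO and 46.0 to 57.1 TPM with A9 in MOLM-13. In MONO-MAC-6 they ran from 284.9 to 424.5 TPM and from 155.1 to 186.6 TPM. Even with A9, MONO-MAC-6 held more IGFBP2 transcript than any MOLM-13 sample.

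IGFBP4 encodes a binding protein that mainly restrains IGF signalling and is cleaved by the protease PAPPA. The gene (ENSG00000141753) lies on chromosome 17 at 40443461 to 40457731 on the plus strand. Its levels in MOLM-13 were 10.2, 10.2 and 10.6 TPM with DMSO and 13.3, 13 and 14.5 TPM with A9, a log2 difference of 0.36 (SE 0.094). In MONO-MAC-6 they were 4.31, 4.15 and 4.33 TPM with DMSO and 2.49, 2.26 and 2.09 TPM with A9, a log2 difference of -0.68 (SE 0.11). The DMSO and A9 samples were apart in both lines, upward for MOLM-13 and downward for MONO-MAC-6. At these low levels the pseudocount of 1 shrinks the difference, which was -0.88 in MONO-MAC-6 with a pseudocount of 0.1. After removal of the length trend the values were 0.41 and -0.83.

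IGFBP7 encodes a low-affinity binding protein of the extracellular matrix that also binds insulin. It (ENSG00000163453) lies on chromosome 4 at 57030773 to 57110385 on the minus strand. With DMSO, MOLM-13 had 102.4, 105.9 and 110.0 TPM, and with A9 it had 117.6, 124.7 and 131.0 TPM. MONO-MAC-6 had 164.9, 157.3 and 158.3 TPM with DMSO and 111.0, 97.4 and 101.3 TPM with A9. The A9 samples again lay wholly above the DMSO samples in MOLM-13, by 0.23 on the log2 scale (SE 0.065), and wholly below them in MONO-MAC-6, by -0.63 (SE 0.08). These differences were 0.22 and -0.70 without the length trend. IGFBP7 moved least of the binding proteins among the members in each line, so the balance between their transcripts also shifted. Protein was not measured. The ratio of IGFBP2 to IGFBP7 was 0.310, 0.322 and 0.317 with DMSO and 0.406, 0.405 and 0.428 with A9 in MOLM-13. In MONO-MAC-6 it was 2.56, 1.88 and 1.82 with DMSO and 1.66, 1.64 and 1.68 with A9. IGFBP7 was the more abundant of the pair in every MOLM-13 sample and IGFBP2 in every MONO-MAC-6 sample, before and after A9. The summed level of IGFBP2, IGFBP3, IGFBP4 and IGFBP7 was 144 to 155 TPM with DMSO and 179 to 202 TPM with A9 in MOLM-13, and 457 to 595 TPM and 262 to 300 TPM in MONO-MAC-6. The gap in total binding protein transcript between the lines was thus narrower with A9 than with DMSO.

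**Figure D1:**
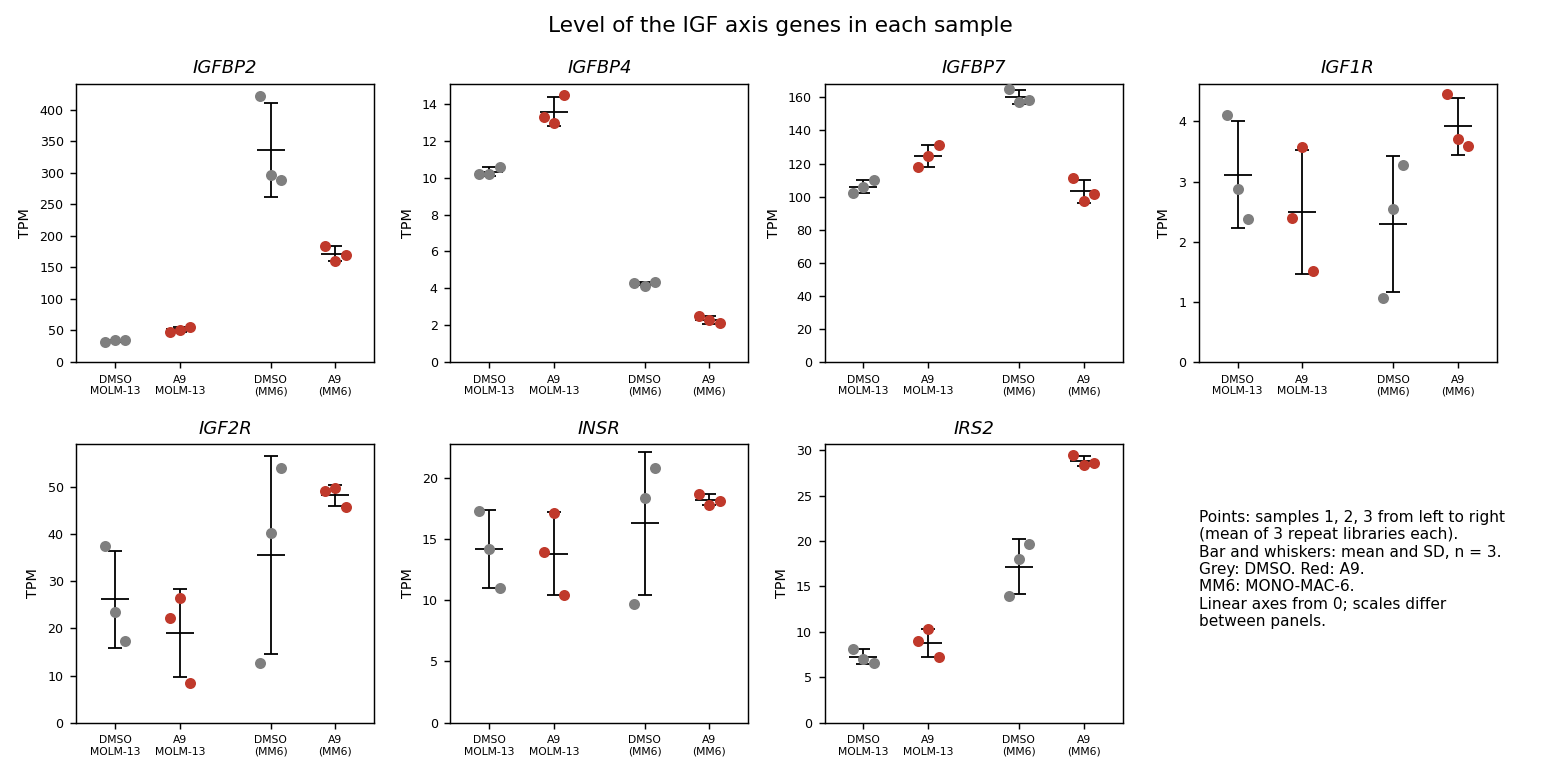
TPM (vertical axis, linear from 0) of the 7 IGF axis genes above the low-level filter, in DMSO (grey) and A9 (red) samples of MOLM-13 and MONO-MAC-6 (MM6). Points are samples 1, 2 and 3 from left to right, and bars with whiskers are the mean and SD (n = 3). IGFBP2, IGFBP4 and IGFBP7 lie higher with A9 in MOLM-13 but lower in MONO-MAC-6, while the receptor genes spread widely between samples of a group.

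The receptors differed from the binding proteins in how far samples of a group lay apart. IGF1R, the main receptor of IGF1 and IGF2, lies on chromosome 15 at 98648539 to 98964530 (plus strand, ENSG00000140443). Its levels were 4.11, 2.87 and 2.37 TPM with DMSO and 2.39, 3.57 and 1.52 TPM with A9 in MOLM-13, so the groups overlapped (log2 difference -0.26, SE 0.26). In MONO-MAC-6 the DMSO samples had 1.06, 2.54 and 3.28 TPM and the A9 samples 4.46, 3.71 and 3.59 TPM. All A9 samples were above all DMSO samples there, with a log2 difference of 0.64 (SE 0.28). That value was 0.33 without DMSO sample 1. Without the length trend it was 0.28, and the MOLM-13 value was -0.13.

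IGF2R, the scavenging receptor of IGF2, lies on chromosome 6 at 159969099 to 160113507 (plus strand, ENSG00000197081). It had 37.6, 23.6 and 17.4 TPM with DMSO and 22.2, 26.4 and 8.47 TPM with A9 in MOLM-13. The MONO-MAC-6 samples had 12.7, 40.3 and 54.0 TPM with DMSO and 49.2, 49.8 and 45.8 TPM with A9. The groups overlapped in both lines, with log2 differences of -0.51 (SE 0.46) and 0.65 (SE 0.49) that rested on single samples. The MOLM-13 value was -0.041 without its A9 sample 3 and -0.76 without its DMSO sample 3. The MONO-MAC-6 value was 0.046 without its DMSO sample 1. Without the length trend the values were -0.38 and 0.30. IGF2R had the largest spread between samples of a group among the tested members, with a pooled SD of 0.724 on the log2 scale, while its repeat libraries of the same sample differed by an SD of only 0.0673. The corresponding SDs were 0.0610 between samples and 0.0834 between repeat libraries for IGFBP4.

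INSR, the insulin receptor, lies on chromosome 19 at 7112255 to 7294034 (minus strand, ENSG00000171105). In MOLM-13 it had 17.3, 14.2 and 11 TPM with DMSO and 13.9, 17.1 and 10.4 TPM with A9. The MONO-MAC-6 samples had 9.70, 18.3 and 20.8 TPM with DMSO and 18.7, 17.8 and 18.1 TPM with A9. The groups overlapped in each line, with log2 differences of -0.043 (SE 0.22) and 0.22 (SE 0.27). Both signs turned without the length trend, to 0.084 and -0.12. The MOLM-13 sign also turned with samples scaled by median ratios (0.0037) and without its A9 sample 3 (0.13), and the MONO-MAC-6 sign without its DMSO sample 1 (-0.097). INSR was more abundant than IGF1R in every sample. The ratio of IGF1R to INSR was 0.237, 0.202 and 0.216 with DMSO and 0.172, 0.209 and 0.147 with A9 in MOLM-13, where the groups overlapped. In MONO-MAC-6 the ratio was 0.109, 0.139 and 0.157 with DMSO and 0.238, 0.208 and 0.198 with A9, with every A9 sample above every DMSO sample. This ratio compares genes of like mean transcript length within a library (8726 bases for IGF1R and 7248 for INSR). Part of the IGF1R value came from short transcripts, however. One of them, IGF1R-216 of 310 bases, had 1.23, 0.0319 and 0.332 TPM with A9 in MONO-MAC-6.

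IRS2, the adaptor that carries the signal from INSR and IGF1R to PI3K, had the largest upward difference of the members in MONO-MAC-6 on the log2(TPM + 1) scale. With a pseudocount of 0.1 IGF1R was ahead (0.88 against 0.75). IGF2R was ahead without DMSO sample 2 (0.84 against 0.76), and IGF2R and IGF1R were without DMSO sample 3 (1.05 and 0.86 against 0.82). The IRS2 gene (ENSG00000185950) lies on chromosome 13 at 109752698 to 109786568 on the minus strand. Its levels there were 13.9, 18.0 and 19.7 TPM with DMSO and 29.5, 28.4 and 28.6 TPM with A9. The samples did not overlap, and the log2 difference was 0.72 (SE 0.14), 0.59 without DMSO sample 1 and 0.38 without the length trend. In MOLM-13 its levels were 8.16, 7.04 and 6.57 TPM with DMSO and 8.94, 10.3 and 7.19 TPM with A9. Those groups overlapped, with a log2 difference of 0.24 (SE 0.16), or 0.37 without the length trend. The ratio of IRS2 to INSR, chosen after the values were seen, was higher with A9 in each line without overlap. It was 0.471, 0.496 and 0.597 with DMSO and 0.645, 0.602 and 0.693 with A9 in MOLM-13, and 1.43, 0.987 and 0.944 with DMSO and 1.58, 1.59 and 1.58 with A9 in MONO-MAC-6. IRS1, the other main adaptor, lies on chromosome 2 at 226731317 to 226799759 (minus strand, ENSG00000169047). It was at 0.101 TPM or less in every sample, below the filter of a group mean of 1 TPM, and was not tested. Of these 2 IRS genes, IRS2 thus gave nearly all transcript in both lines.

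**Figure D2:**
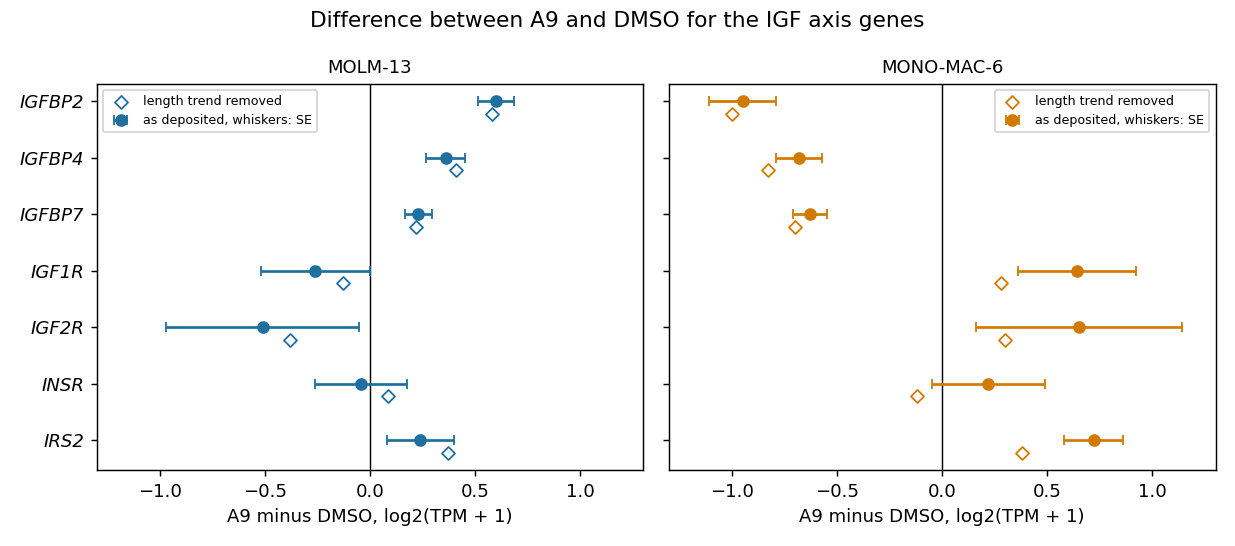
Difference between A9 and DMSO on the log2(TPM + 1) scale (horizontal axis) for the 7 tested IGF axis genes in each line. Filled points with whiskers are fitted differences with their SE from 3 against 3 samples, and open diamonds are the differences after the length trend of each sample was removed. IGFBP2, IGFBP4 and IGFBP7 keep their side of 0 in both lines, and INSR changes side.

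Counted over the members, 7 of 8 passed the filter in each line. In MOLM-13, 3 members lay wholly higher with A9 (IGFBP2, IGFBP4 and IGFBP7), as 8.59% of all tested genes did, and 0 lay wholly lower, against 6.43%. No member reached an adjusted p under 0.05 there, a threshold that 0.121% of the 11590 genes passed (0.0863% higher and 0.0345% lower), although IGFBP2 did under the replicate block and after removal of the length trend. In MONO-MAC-6, 3 members lay wholly lower, against 10.7% of all genes, and 2 (IGF1R and IRS2) wholly higher, against 27.2%. The 3 binding proteins were past the threshold in MONO-MAC-6, which 3.37% of 12862 genes passed (2.51% higher and 0.855% lower). The difference between the lines in the A9 effect was past the threshold for the same 3 genes, against 2.99% of 13401 genes. In MONO-MAC-6 alone, IGFBP2 and IGFBP4 kept their side of the threshold without DMSO sample 1 and lost it without each of the other 5 samples, and IGFBP7 kept it without DMSO sample 1 or 3. Since the members were picked on these contrasts, their calls are not tests of them. Nothing is read from those counts or from which fits kept a call. The difference of effects, MONO-MAC-6 minus MOLM-13, was -1.55 for IGFBP2 (SE 0.19), -1.05 for IGFBP4 (SE 0.12) and -0.86 for IGFBP7 (SE 0.093) on the log2 scale. It was 0.90 for IGF1R (SE 0.41), 1.16 for IGF2R (SE 0.74), 0.26 for INSR (SE 0.38) and 0.48 for IRS2 (SE 0.21). Without the length trend the IRS2 difference was -0.0018, since the 2 lines then had values of 0.37 and 0.38.

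**Figure D3:**
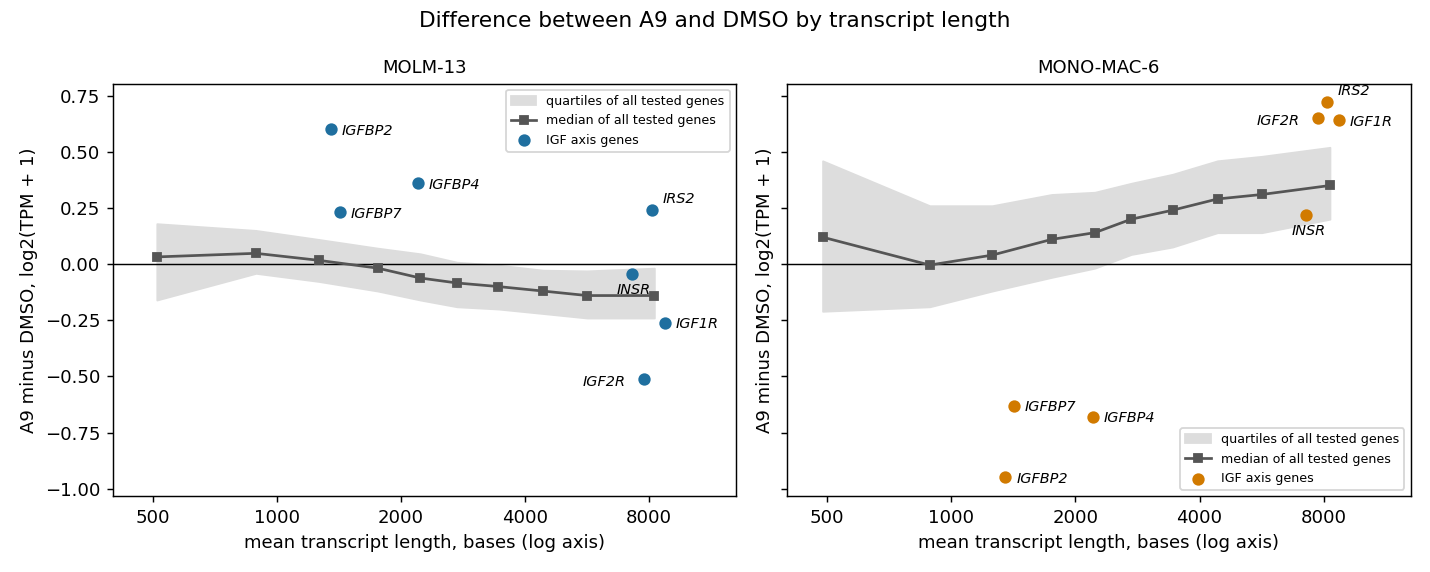
Difference between A9 and DMSO on the log2(TPM + 1) scale (vertical axis) against mean transcript length in bases (horizontal axis, log scale). Squares and grey bands are medians and quartiles of all tested genes in 10 length classes, and coloured points are the IGF axis genes. From 1000 bases up, the median declines with length in MOLM-13 and climbs with it in MONO-MAC-6; IGFBP2, IGFBP4 and IGFBP7 lie outside the band in both lines, on opposite sides.

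The transcripts behind each gene were examined next, with no test. IGFBP2-201, of 1439 bases and 4 exons, starts at 216633395 and codes for the full protein. It had means of 28.8 ± 2.87 TPM with DMSO and 42.6 ± 2.29 TPM with A9 in MOLM-13, and 276 ± 47.7 and 153 ± 13.6 TPM in MONO-MAC-6 (SD, n = 3). IGFBP2-204, of 846 bases, starts further downstream at 216659618 within the gene, near the CpG-poor window printed above. Its levels were 5.75, 5.05 and 2.99 TPM with DMSO and 6.23, 8.44 and 10.7 TPM with A9 in MOLM-13. In MONO-MAC-6 they were 87.8, 49.9 and 31.4 TPM with DMSO and 14.4, 18.5 and 16.8 TPM with A9. Both transcripts thus lay wholly higher with A9 in MOLM-13 and wholly lower in MONO-MAC-6. The share of IGFBP2 from IGFBP2-204 was 8.57% to 18.1% with DMSO and 13% to 19.1% with A9 in MOLM-13, and 10.9% to 20.8% and 7.82% to 11.6% in MONO-MAC-6, with overlap in each line. The main isoform therefore carried most of the opposite movement. How reads shared by overlapping transcripts were divided is not in the files, so these shares are less certain than gene sums.

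Of the INSR isoforms, INSR-201 holds exon 11 and has 22 exons, and INSR-202 lacks it and has 21 exons. As background, the form without exon 11 (IR-A) binds IGF2 as well as insulin, and the form with it (IR-B) is the more insulin-selective receptor. INSR-201 made up 26.3%, 17.8% and 14.1% of the 2 isoforms with DMSO and 22.0%, 21.4% and 11.3% with A9 in MOLM-13. In MONO-MAC-6 the shares were 18.3%, 16.6% and 23.8% with DMSO and 26.4%, 20.9% and 20.6% with A9. INSR-202 was the more abundant form in all 12 samples, and the shares overlapped between DMSO and A9 in both lines. The isoforms also differ in length, 4721 against 8954 bases, so the share is not a measure of exon 11 alone. The IGF2R value came largely from the coding transcript IGF2R-201 and from IGF2R-207, annotated as a retained intron, which gave 22.5% to 38.8% and 41.9% to 51.1% of its TPM in MOLM-13 with DMSO. IGFBP7-201 gave nearly all IGFBP7, with a mean of 101 ± 4.18 TPM in MOLM-13 and 156 ± 6.24 TPM in MONO-MAC-6 with DMSO (SD, n = 3).

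**Figure D4:**
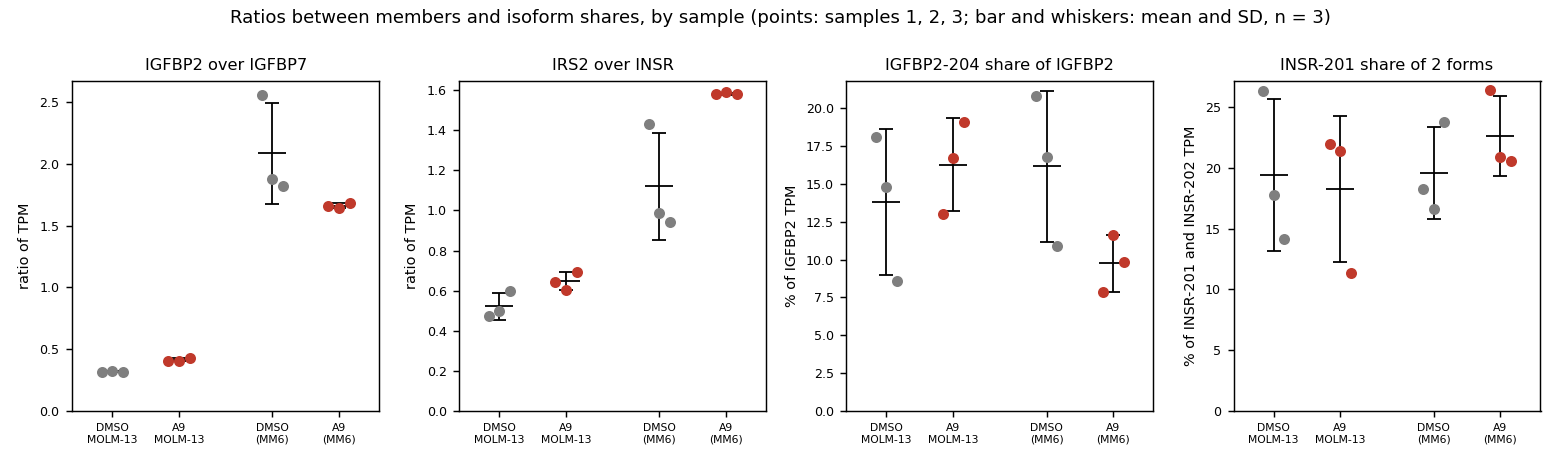
From left to right, the ratio of IGFBP2 to IGFBP7 TPM, the ratio of IRS2 to INSR TPM, the percent of IGFBP2 TPM from IGFBP2-204 and the percent of INSR-201 among INSR-201 and INSR-202, for each sample of MOLM-13 and MONO-MAC-6 (MM6) with DMSO (grey) or A9 (red). Points are samples and bars with whiskers are the mean and SD (n = 3), on linear axes from 0. The IGFBP2 to IGFBP7 ratio is higher with A9 in MOLM-13 but lower in MONO-MAC-6, the IRS2 to INSR ratio is higher with A9 in both lines, and both isoform shares overlap.

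The lines were also compared in DMSO alone. The members were not chosen on this contrast, but their choice used the same DMSO samples, so their p-values below are not independent of it. Here 48.8% of 12914 genes passed an adjusted p under 0.05 (30.4% higher and 18.4% lower in MONO-MAC-6), and 4 of the 7 tested members did. Each library was scaled to its own total and the lines stand in separate deposited tables, so line and table cannot be told apart. IGFBP2 was 3.26 higher in MONO-MAC-6 on the log2 scale (SE 0.16, limma with Benjamini-Hochberg adjusted p = 2.16e-05), a ratio of means of 10.0. IRS2 was higher by 1.13 (SE 0.17, adjusted p = 0.00199 in limma) and IGFBP7 by 0.59 (SE 0.072, adjusted p = 0.000767 in limma). IGFBP4 went the other way, with a difference of -1.11 (SE 0.12, adjusted p = 0.000411 in limma). The call for IGFBP7 was lost with median-ratio scaling, at 0.45, and the other 3 held under all 11 alternatives. The receptors did not pass: the differences were -0.37 for IGF1R (SE 0.31, adjusted p = 0.374 in limma), 0.28 for IGF2R (SE 0.56, adjusted p = 0.712 in limma) and 0.14 for INSR (SE 0.31, adjusted p = 0.732 in limma), which does not show that the lines were alike. By mean level with DMSO, the order in MOLM-13 was IGFBP7 (106 TPM), IGFBP2 (33.6), IGF2R (26.2), INSR (14.2), IGFBP4 (10.3), IRS2 (7.26) and IGF1R (3.12). The MOLM-13 samples overlapped between IGFBP2 and IGF2R, and the other neighbours in this order did not overlap. In MONO-MAC-6 the order was IGFBP2 (336 TPM), IGFBP7 (160), IGF2R (35.7), IRS2 (17.2), INSR (16.3), IGFBP4 (4.26) and IGF1R (2.29), with overlap between IGF2R and IRS2 and between IRS2 and INSR.

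The other genes of the pathway were taken from 11 lists with 76 genes besides the members. The ligands IGF1, IGF2 and INS were below the filter in each group (0 of 3 tested), with IGF1 at no more than 0.516 TPM and IGF2 at no more than 0.0282 TPM in any sample. Among the other binding proteins IGFBP1 was listed at 0 throughout, IGFBP5 did not exceed 0.0101 TPM, and IGFBP6 passed the filter only in MONO-MAC-6 (-0.091, adjusted p = 0.696 in limma). In MOLM-13, 55 of the 76 genes were tested and 0 passed in limma, with 6 at an unadjusted p under 0.05. Their median log2 difference was -0.14, against -0.046 over all genes, and 5 lay wholly higher and 4 wholly lower, beside 8.59% and 6.43% of all genes. In MONO-MAC-6, 57 were tested, 4 were higher and 2 lower past the threshold, and the median was 0.23 against 0.16 over all genes. These calls stand beside 2.51% higher and 0.855% lower of all genes. By overlap of samples, 14 of these 57 genes lay wholly higher and 6 wholly lower, near the shares of all genes (27.2% and 10.7%). The median of 0.16 over all genes in MONO-MAC-6 is a shift of the whole table to be set against each rise. After median-ratio scaling, which centres the samples, it was 0.0069.

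IGFBP3, the main carrier of IGFs in serum, was the other binding protein that fell in MONO-MAC-6. The samples had 3.83, 4.87 and 5.26 TPM with DMSO and 2.66, 2.0 and 2.16 TPM with A9 (log2 difference -0.79, SE 0.15, adjusted p = 0.0491 in limma). In MOLM-13 it was listed at 0 in all 6 samples, so the opposite movement could not be looked for. CTSD encodes cathepsin D, a lysosomal protease that can cleave IGFBPs and that reaches lysosomes by way of mannose 6-phosphate receptors such as IGF2R. It rose in MONO-MAC-6 from 159.4, 144.6 and 158.4 TPM to 566.5, 721.8 and 683.1 TPM, by 2.08 on the log2 scale (SE 0.11, adjusted p = 0.00133 in limma). In MOLM-13 it had 38.7, 40.0 and 42.9 TPM with DMSO and 49.8, 55.8 and 50.9 TPM with A9 (0.36, SE 0.078, adjusted p = 0.205 in limma). On this scale CTSD had the largest called difference of the pathway genes, but with a pseudocount of 0.1 its 2.09 was below PDK4 (2.57) and PIK3R5 (2.23). The CTSD call held in MONO-MAC-6 without each of the 6 samples in turn. The myeloid marker sum given above also went up with A9 in MONO-MAC-6, and its part in the CTSD rise was not tested.

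PIK3R5, a regulatory subunit of the PI3K gamma enzyme of blood cells, rose in MONO-MAC-6 from 0.634, 1.20 and 1.5 TPM to 4.86, 5.71 and 5.34 TPM (1.60, SE 0.18, adjusted p = 0.00988 in limma). PDK4 encodes a mitochondrial kinase known as a FOXO target that insulin lowers. It rose from 0.101, 0.132 and 0.224 TPM to 1.08, 1.70 and 1.40 TPM (1.05, SE 0.14, adjusted p = 0.0133 in limma). With a DMSO mean of 0.153 TPM, PDK4 passed the filter of 1 TPM only through its A9 group, which limits that p-value. With no filter the adjusted p was 0.0283 in limma. PDK4 was listed at 0 in every MOLM-13 sample. LRP1, an endocytic receptor that binds IGFBP3, rose from 5.15, 6.41 and 7.40 TPM to 12.2, 14.5 and 13.1 TPM (0.97, SE 0.16, adjusted p = 0.0277 in limma). SREBF1, a lipid synthesis factor that insulin induces, fell from 45.7, 51.5 and 55.1 TPM to 25.8, 23.7 and 24.2 TPM (-1.01, SE 0.10, adjusted p = 0.00655 in limma). PDK4 and SREBF1 were the genes of the FOXO-responsive and insulin-responsive list that passed, 1 in each direction of 7 tested, with a list median of 0.12. Of 13 tested PI3K and AKT genes PIK3R5 alone passed in MONO-MAC-6, and 0 of 10 tested adaptors and 0 of 11 tested mTOR complex genes did. Several of these calls depended on 1 sample or on the fit. With the replicate block, SREBF1 (adjusted p = 0.0637 in limma), PDK4 (0.0673), LRP1 (0.103) and IGFBP3 (0.189) were lost, and with no filter LRP1 (0.0595) and IGFBP3 (0.0963) were. IGFBP3 was also lost with a pseudocount of 0.1 (0.0552). Without single samples in limma, SREBF1 was lost without A9 sample 2 or 3 (adjusted p = 0.0681 and 0.0682), PDK4 without DMSO sample 2 or A9 sample 2 or 3 (0.0687 to 0.0968), and PIK3R5 without DMSO sample 2 or any A9 sample (0.0507 to 0.0776). LRP1 was lost without the same 4 samples (0.107 to 0.174) and without the length trend (0.60, adjusted p = 0.0672 in limma), and IGFBP3 held only without DMSO sample 1 among these omissions (0.113 to 0.267 without each of the others). CD93, a receptor of IGFBP7 chosen here after its values were seen, had 13.7, 25.1 and 28.9 TPM with DMSO and 53.3, 58.4 and 54.7 TPM with A9 in MONO-MAC-6 and just missed the threshold (1.32, SE 0.26, adjusted p = 0.0554 in limma).

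**Figure D5:**
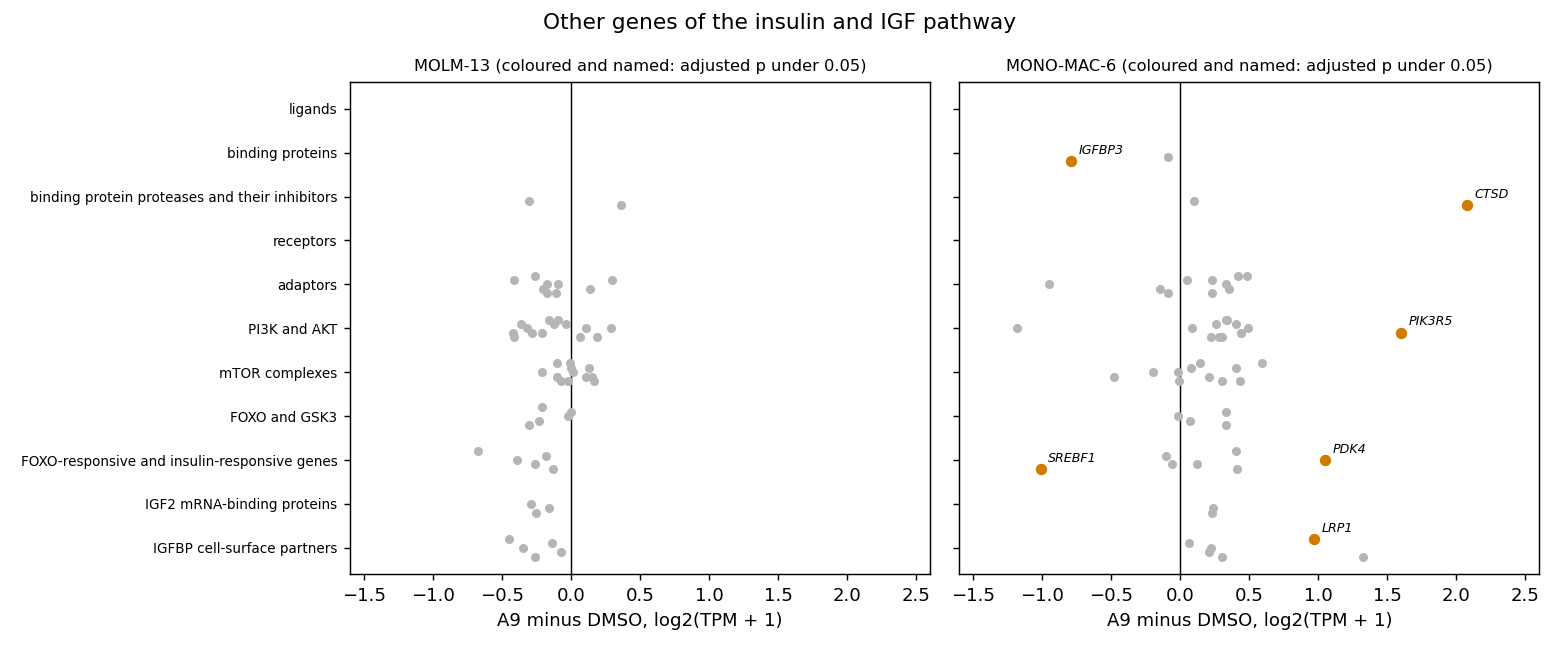
Difference between A9 and DMSO on the log2(TPM + 1) scale (horizontal axis) for the tested genes of the 11 pathway lists other than the IGF axis members, 55 for MOLM-13 and 57 for MONO-MAC-6, with 1 row per list. Coloured, named points passed an adjusted p under 0.05 in limma; grey points did not. No gene passed in MOLM-13, and 6 did in MONO-MAC-6, from SREBF1 at -1.01 to CTSD at 2.08.

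In the DMSO comparison of the lines, 60 of the 76 pathway genes were tested, and 19 were higher and 14 lower in MONO-MAC-6 than in MOLM-13, near the 30.4% and 18.4% of all genes. LRP1 was higher by 2.67 (SE 0.15, adjusted p = 3.1e-05 in limma), and IGFBP3 was at a mean of 4.65 TPM against 0 listed in MOLM-13. IGF2BP1, an IGF2 mRNA-binding protein, was lower in MONO-MAC-6, at 0.210 against 11.7 TPM (-3.37, SE 0.18, adjusted p = 2.59e-05 in limma). PTPRB, a receptor phosphatase that binds IGFBP2, was at 0.111 against 9.78 TPM (-3.26, SE 0.18, adjusted p = 3.55e-05 in limma). LRP1 (0.145 TPM in MOLM-13), IGF2BP1 and PTPRB passed the filter only through the line where they were high, which limits their p-values. Their calls held in all 11 alternatives. The sizes depended on the fit, reaching 4.73 for LRP1, -5.23 for IGF2BP1 and -5.66 for PTPRB. PTPRB was the 1 gene called lower among 7 tested cell-surface partners, and 2 were called higher. One of these was the integrin subunit ITGA5, at 49.4 against 32.2 TPM (0.59, SE 0.16, adjusted p = 0.0241 in limma), and the other was LRP1.

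The genes most like IGFBP2 were ranked by Pearson's r of log2(TPM + 1) over the 12 samples after each line's mean was subtracted, among 11050 genes. All points share the same libraries and the same contrast, so r is a description. The 5 highest were HERC5 (r = 0.966), an interferon-induced ISG15 ligase, PIH1D1 (0.962), a subunit of a chaperone complex, SPNS3 (0.960), a transporter of the spinster family, MRPL57 (0.958), a mitochondrial ribosomal protein, and GPR162 (0.957), an orphan receptor. IGFBP4 ranked 7 (r = 0.948) and IGFBP7 ranked 8 (0.947). Of the long members, IGF1R had r = -0.770, IGF2R -0.679, IRS2 -0.649 and INSR -0.503. SPNS3 averaged 104 TPM with DMSO and 139 TPM with A9 in MOLM-13, while MONO-MAC-6 averaged 43.7 and 29 TPM. With line means removed, r rests largely on the A9 contrast by which the members were chosen, so nothing is read from the ranks of IGFBP4 and IGFBP7. Between the lines in DMSO, IGFBP4 and IGFBP2 differed in opposite directions, as given above.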

How the data were processed

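Bulk RNA was sequenced from 12 samples (36 libraries). Per the labels' protocols, RNA came from a NucleoSpin kit, samples had a RIN of at least 8, poly(A) RNA was selected, and paired reads of 150 bases were made at a stated 25000000 reads per sample. The authors deposited TPM per Ensembl transcript and library in 1 table per line. Per the submitters' processing notes, kallisto, limma and GRCh38 were used; versions and the annotation release are not given in the sources used here. Since TPM hold no counts, neither depth nor a counting interval can be given.

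From the deposited TPM, transcripts were matched to GENCODE 29 (162526 of 207175, 78.4%, with 89.8% to 91.4% of TPM per library) and summed to 35442 symbols. The labels state 3 samples per group but list 9 libraries, so libraries with the same first number were averaged. Genes whose group mean reached 1 TPM in any group were fitted as log2(TPM + 1) in limma 3.58.1 (R 4.3.3; eBayes with trend and robust), two-sided, with Benjamini-Hochberg adjustment over all genes tested and a threshold of 0.05. With 3 against 3 samples, an exact permutation test has 0.1 as its smallest two-sided p. The script was tested on simulated data with 200 genes changed by 1.5 on the log2 scale. It recovered 86.5% of them for MOLM-13, 76.0% for MONO-MAC-6 and 72.0% for the DMSO comparison. False calls numbered 13, 6 and 12. Noise was drawn separately for each gene, so outlying samples and the length trend were not part of this check. Each line had its own fit, and the difference between lines used all 12 samples. The members and lists were chosen with earlier results of these data known, and the ratios between members after their values were seen. Named genes are the members, up to 5 called genes per direction and line from 11 pathway lists, and the 5 genes most like IGFBP2; CD93, CD33, other cell markers and the pathway genes named with the DMSO comparison or as unmeasured are beyond this rule. Alternatives were a pseudocount of 0.1, no filter, median-ratio scaling, removal of each sample's length trend (lowess, span 0.3), a replicate block, and the omission of each sample in turn. Python 3.11.15 with pandas 2.3.3 and matplotlib 3.10.9 wrote tables and plots.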

Additional observations from a re-analysis of the deposited data

Results flagged for a closer look

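The interaction term, the difference between the lines in the A9 effect, was past the threshold for 9 of the members and pathway genes. Of all 13401 tested genes, 2.99% were past it. For IGFBP2 (-1.55), IGFBP4 (-1.05) and IGFBP7 (-0.86) on the log2 scale, MONO-MAC-6 minus MOLM-13, this repeats the pattern by which the members were chosen and carries no test here. The other 6 were among 62 tested pathway genes, with the term tested over all genes in limma with Benjamini-Hochberg adjustment. CTSD differed by 1.72 (SE 0.13, adjusted p = 7.64e-05 in limma) and PDK4 by 1.05 (SE 0.13, adjusted p = 0.00192 in limma), and the CTSD call held without each of the 12 samples in turn. PDK4 and IGFBP3 were listed at 0 in all 6 MOLM-13 samples, so their terms repeat the MONO-MAC-6 difference and do not show that the lines respond differently. PDK4 also passed the filter only through the A9 group of MONO-MAC-6. The PDK4 call held without each of the 6 MONO-MAC-6 samples and was lost without the length trend (0.71, adjusted p = 0.135 in limma). PIK3R5 differed by 1.49 (adjusted p = 0.0272 in limma), LRP1 by 0.92 (adjusted p = 0.0212 in limma), SREBF1 by -0.83 (adjusted p = 0.0319 in limma) and IGFBP3 by -0.79 (adjusted p = 0.0232 in limma). LRP1 was at no more than 0.293 TPM in any MOLM-13 sample, below the filter there. Its term thus largely repeats the MONO-MAC-6 difference of 0.97 and does not show that the lines respond differently. PIK3R5, LRP1, SREBF1 and IGFBP3 held in 4, 6, 3 and 3 of the 12 fits that left out 1 sample. IGFBP3 was lost without each of the 6 MOLM-13 samples (adjusted p = 0.0564 to 0.0703 in limma). LRP1 was lost without the length trend (0.41, adjusted p = 0.366 in limma) and with a pseudocount of 0.1 (0.85, adjusted p = 0.305 in limma). With the replicate block SREBF1 (adjusted p = 0.0956 in limma) and IGFBP3 (0.125) were lost, with no filter PIK3R5 (0.0513) and SREBF1 (0.0603), and with a pseudocount of 0.1 IGFBP3 (0.0765). Dose and line cannot be told apart in any of these differences.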

How the results depend on the processing

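Over all genes, the count past the threshold in MOLM-13 was 14, against 4 with no filter, 48 with median-ratio scaling, 177 without the length trend, 87 with the replicate block and 2 to 8 without 1 sample. In MONO-MAC-6 it was 433, against 254 with no filter, 1199 without the length trend, 102 with the replicate block and 59 to 3202 without 1 sample, the highest without DMSO sample 1 and the lowest without A9 sample 2. The difference between lines had 401, against 741 without the length trend, 207 with the replicate block and 197 to 548 without 1 sample, and the DMSO comparison 6305, against 4109 with the block and 4643 to 8060 without 1 sample. The share of higher calls was 74.6% in MONO-MAC-6, 61.5% with scaling and 53.2% without the length trend. For the difference between lines it was 64.3%, 54.7% and 45.6%, and for the DMSO comparison 62.2%, 52.1% and 50.3%. Same-numbered DMSO and A9 samples correlated at 0.377, -0.071 and 0.681 in MOLM-13 and -0.038, 0.097 and -0.127 in MONO-MAC-6. The MONO-MAC-6 correlations were weak, and with 3 samples per group they cannot tell whether the numbers pair the samples. In MOLM-13 DMSO sample 3 went with A9 sample 3 but against A9 samples 1 and 2 (-0.408 and -0.606). DMSO sample 1 there went most with A9 sample 2 (0.638). Whether same-numbered samples of either line share an origin was not tested. IGFBP2, IGFBP4 and IGFBP7 kept their direction in both lines in all 11 alternatives, a direction fixed by how they were chosen. In MONO-MAC-6 they were past the threshold in 3, 4 and 6 of 11, and in MOLM-13 IGFBP2 was in 2 of 11. Nothing is read from these calls, for the same reason. In the DMSO comparison IGF2R ran from -0.12 to 0.88 and INSR from -0.059 to 0.46 over the fits without 1 sample, with the sign turned without MONO-MAC-6 sample 3 for both and without MOLM-13 sample 3 for INSR (-0.015). IGF1R passed there without the length trend (-0.32). Causes were not tested. TPM hold no depth, so no depth limit is given.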
